A study of Homo sapiens with 17 samples.

Results

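Keratins are the intermediate filament proteins of epithelial cells. They polymerise as pairs of a type I and a type II chain, and the genes of each type stand side by side, type II on chromosome 12 together with the type I gene KRT18, and the other type I genes on chromosome 17. Simple epithelia, such as those of lung and gut, use KRT8 with KRT18 and often KRT7 and KRT19, whereas KRT5 and KRT14 mark basal cells, KRT1 and KRT10 cornifying epidermis, and many further pairs hair and its sheaths. H3K27me3 is the histone mark of Polycomb repression and H3K9me3 that of heterochromatin. AP-1 factors, among them FOSL2, are long known as regulators of keratin genes such as KRT18, and FOXA1 is a forkhead pioneer factor of endodermal epithelia.

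All 55 protein-coding genes of the GRCh38.p14 table whose symbol is KRT followed by a number and at most 1 letter were taken, out of 19970 protein-coding genes on chromosomes 1 to 22 and X. The rule used symbols and no measured value, but it was set with earlier results of these data known. It left out the 94 genes of the keratin-associated proteins. The chromosome 12 cluster held 27 of the 55 genes over 784 kb, from KRT80 to KRT18, and the chromosome 17 cluster held 28 over 970 kb, from KRT222 to KRT17. The keratin gene bodies were short, with a median of 6.43 kb against 24.2 kb for all protein-coding genes.

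The data were lists of enriched sites (peaks) found by ChIP-seq, which sequences the DNA bound by an antibody's target, in A549, a line from a human lung carcinoma, 1 list per library and 2 libraries per group. Unmodified (WT) cells gave the FOXA1, H3K9me3 and H3K27me3 lists. A derived A549 line gave the FOXA1 and FOSL2 lists; it carries A-Fos, a dominant-negative Fos that blocks AP-1 from binding DNA, integrated by piggyBac and inducible with doxycycline. This line was studied without doxycycline and after 48 h in 1 µg/mL of it. Whether it is a single clone is not given in the sources used here, and no doxycycline-treated cells without A-Fos were analysed, so A-Fos and doxycycline itself cannot be told apart. The titles call the 2 libraries of a group biological replicates, with no word on separate cultures, so the tests measure the spread between these libraries.

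The lists ran from 201740 to 305084 peaks for H3K9me3, 190938 and 228427 for H3K27me3, 49448 and 80318 for FOXA1 in WT cells, 7633 to 15065 for FOXA1 in the A-Fos line and 1854 to 45586 for FOSL2. Depth is unknown, because no list gives reads, and a longer list can reflect a deeper library. Of 8 genes that mark lung epithelium, 3 had H3K27me3 at an end (EPCAM, NKX2-1 and SFTPC), and NKX2-1 and SFTPC, the lung lineage factor and a surfactant gene, were covered by it over 57.4% and 83.2% of their bodies. In EPCAM 0% of the body was covered in both libraries. CDH1, KRT8, KRT18, KRT19 and another surfactant gene, SFTPB, had no covered end.

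Part of the chromosome 17 cluster was without any peak. In 3 stretches of 261, 166 and 60.1 kb, none of the 14 lists held a peak, and 10 keratin genes lay inside them (KRT12, KRT20, KRT23, KRT39, KRT40, KRT33A, KRT33B, KRT34, KRT31 and KRT37). Stretches of at least 50 kb without any peak held 7.64% of all protein-coding genes. A cover of 0 in these 10 genes cannot be taken as absence of a mark, and the cause of the gaps was not tested. The lists also held up to 47 peaks each on alternate contigs of chromosome 17, whose positions were not used here.

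Promoter sequences show the kinds of chromatin met along the 2 clusters. RefSeq promoter windows (GRCh38.p14, 250 bases before to 50 after a start) were at hand for 34 of the 55 genes, in 38 entries since some genes had several. All these windows were on the minus strand. The 21 genes without a window included KRT7, KRT18 and KRT19. Among the windows at hand, FOXA1 or FOSL2 peaks touched those of KRT8 and KRT4 alone. Both marks, in both libraries, touched the windows of KRT2, KRT25, KRT32 and KRT38. The sequences run 5′ to 3′ and show a window under FOXA1 (KRT8), a window under FOXA1 and H3K27me3 (KRT4) and 2 windows under both histone marks (KRT2 of type II, KRT38 of type I); capitals mark a forkhead motif.
KRT8, chr12:52926420-52926719, minus strand: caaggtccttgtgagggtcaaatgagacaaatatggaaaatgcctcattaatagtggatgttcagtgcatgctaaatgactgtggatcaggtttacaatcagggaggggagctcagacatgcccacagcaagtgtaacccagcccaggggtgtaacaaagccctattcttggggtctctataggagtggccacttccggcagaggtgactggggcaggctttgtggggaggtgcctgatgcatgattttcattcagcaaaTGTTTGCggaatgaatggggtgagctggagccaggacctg
KRT4, chr12:52814067-52814366, minus strand: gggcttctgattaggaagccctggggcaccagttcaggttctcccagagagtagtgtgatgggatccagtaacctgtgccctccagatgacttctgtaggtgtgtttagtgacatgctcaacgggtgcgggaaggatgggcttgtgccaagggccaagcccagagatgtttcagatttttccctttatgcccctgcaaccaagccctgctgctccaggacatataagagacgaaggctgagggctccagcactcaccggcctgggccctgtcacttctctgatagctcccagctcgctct
KRT2, chr12:52652162-52652461, minus strand: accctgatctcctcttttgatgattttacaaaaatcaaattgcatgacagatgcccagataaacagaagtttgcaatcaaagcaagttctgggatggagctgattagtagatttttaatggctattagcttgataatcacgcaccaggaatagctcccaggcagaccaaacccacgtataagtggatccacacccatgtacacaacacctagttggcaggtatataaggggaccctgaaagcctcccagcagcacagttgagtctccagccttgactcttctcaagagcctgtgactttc
KRT38, chr17:41440934-41441233, minus strand: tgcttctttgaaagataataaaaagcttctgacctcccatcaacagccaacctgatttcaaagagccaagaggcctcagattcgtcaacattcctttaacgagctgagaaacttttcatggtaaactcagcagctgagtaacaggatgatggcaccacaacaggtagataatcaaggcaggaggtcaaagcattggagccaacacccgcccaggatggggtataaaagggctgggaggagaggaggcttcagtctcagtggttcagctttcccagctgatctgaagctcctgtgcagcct
The KRT8 window lay inside the gene's interval, its start 23391 bp from the interval's upper end. Whether A549 cells use this start of KRT8 was not tested. The window is called the KRT8 window only because it was the entry at hand. This window lay under a FOXA1 region of both WT libraries (52924977 to 52927923) and between a pair of FOSL2 regions described later. It held the forkhead motif TGTTTGC, read on both strands as were all motifs. The KRT4 window was touched by FOXA1 in WT library 2 and by H3K27me3 in both libraries, and held no searched motif. Over the 38 keratin entries, TGTTTGC occurred in 3 (7.89%) against 3.40% of 22131 protein-coding entries, TGTTTAC in 1 (2.63%) against 2.85%, and the AP-1 motif TGANTCA in none against 6.15%. A matching string is a description of the window and not a binding site.

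The first comparison asked which keratin genes carried the repressive marks in WT cells. H3K27me3 lay at an end of 30 of the 55 genes (54.5%), within 1 kb and in both libraries, against 23.3% of all protein-coding genes. Library 1 alone gave 37 genes (67.3%, against 26.1% of all genes) and library 2 alone 34 (61.8%, against 30.3%). At both ends the mark was present in 16 keratin genes, where the share over all genes was 7.65%. It covered at least 50% of the body in 9 keratin genes (16.4%) against 4.23% of all genes, and against 4.5% of the 12104 genes whose length lay within the keratin range. The median cover of a keratin body was 14.8% in library 1 and 20.7% in library 2, and 5.14% where both libraries were required, against a median of 0 over all genes for each. No test was made, because neighbouring keratin genes share domains and are not independent. With only peaks at or above the median enrichment of their list (the upper part) the count was 18 of 55, against 18.2% of all genes. With the end base alone it was 17 of 55 against 8.84%, and with at least 50% of an end window covered 15 of 55 against 9.5%. Each keratin share lay above that of all genes. Either end of a gene counted, without regard to strand, so a covered end need not be the start of transcription. KRT5 and KRT24, for example, start at their upper end and had only the lower one covered in both libraries. Within 1 kb of the start KRT5 held 14.2% and 0% and KRT24 0% and 25.1%, whereas KRT9 held 100% in both libraries.

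H3K27me3 at an end was counted by subgroup. None of the 5 simple keratins had a covered end, and 4 of them lay outside the stretches without peaks. KRT7 and KRT19, which are partners of KRT8 and KRT18 in glandular and ductal epithelia, were at 0% in both libraries. KRT18 was also at 0%, and KRT8 was at 0% in library 1 and 0.82% in library 2. The fifth, KRT20 of intestinal epithelium, lay in a stretch without peaks.

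Basal keratins were intermediate. KRT5, the type II chain of basal cells, was covered over 25.8% and 34.8% of its body, and its partner KRT14 over 61.2% and 62.4%. KRT15 had 9.17% and 6.63%, with no base shared by the libraries and no covered end. So 2 of the 3 basal genes had the mark at an end, in each only the lower end where both libraries were required.

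Among the cornifying keratins 4 of 5 had a covered end. KRT9, the keratin of palm and sole, was the most covered keratin gene, at 100% in both libraries. KRT1, the type II chain of suprabasal epidermis, followed at 86.2% and 96.7%. Its type I partner KRT10 was the exception, at 0% in both libraries and with no covered end. The 2 genes of that pair therefore stood at opposite ends of the range.

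All 5 stress keratins, which injured epidermis induces, had a covered end, in KRT16 and KRT17 the lower end alone. KRT6A was covered over 78.7% and 75.3%, KRT6B over 52.8% and 65.4%, and KRT6C over 39.2% and 35.8%. KRT16, their usual type I partner, stood at 36.9% and 62.8%. KRT17 was the least covered of the group, with 14.8% in library 1 and 0% in library 2. KRT6A, KRT6B and KRT6C are near-identical copies, so reads may have been shared between them.

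Of the 9 keratins of the inner root sheath and the companion layer of the hair follicle, 8 had a covered end, and their median cover in both libraries was 51.2%. KRT74 reached 90.4% and 85.1%, KRT75 of the companion layer 70.8% and 72.6%, and KRT73 65.0% and 71.6%. KRT72 had no covered end although 48.6% and 33.5% of its body was covered. The mucosal and corneal keratins had 6 of 7 covered, among them KRT4 of the oesophagus (67.4% and 66.4%), its type I partner KRT13 (6.28% and 13.9%) and KRT3 of the cornea (4.32% and 23.3%). The exception was KRT12, in a stretch without peaks.

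Hair keratins, which build the shaft, had a covered end in 4 of 17 genes where both libraries were required and in 8 of 17 in each library alone, and 7 of the 17 lay in stretches without peaks. KRT38 was the most covered at 47.2% and 51.4%, while KRT81 was at 0% in both libraries. Of the 4 remaining genes only KRT79 had a covered end. KRT80, whose product is found in many epithelia, was at 0% in both libraries, and KRT222, a keratin-like gene, was at 0% and 6.33%. KRT23 lay in a stretch without peaks.

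**Figure D1:**
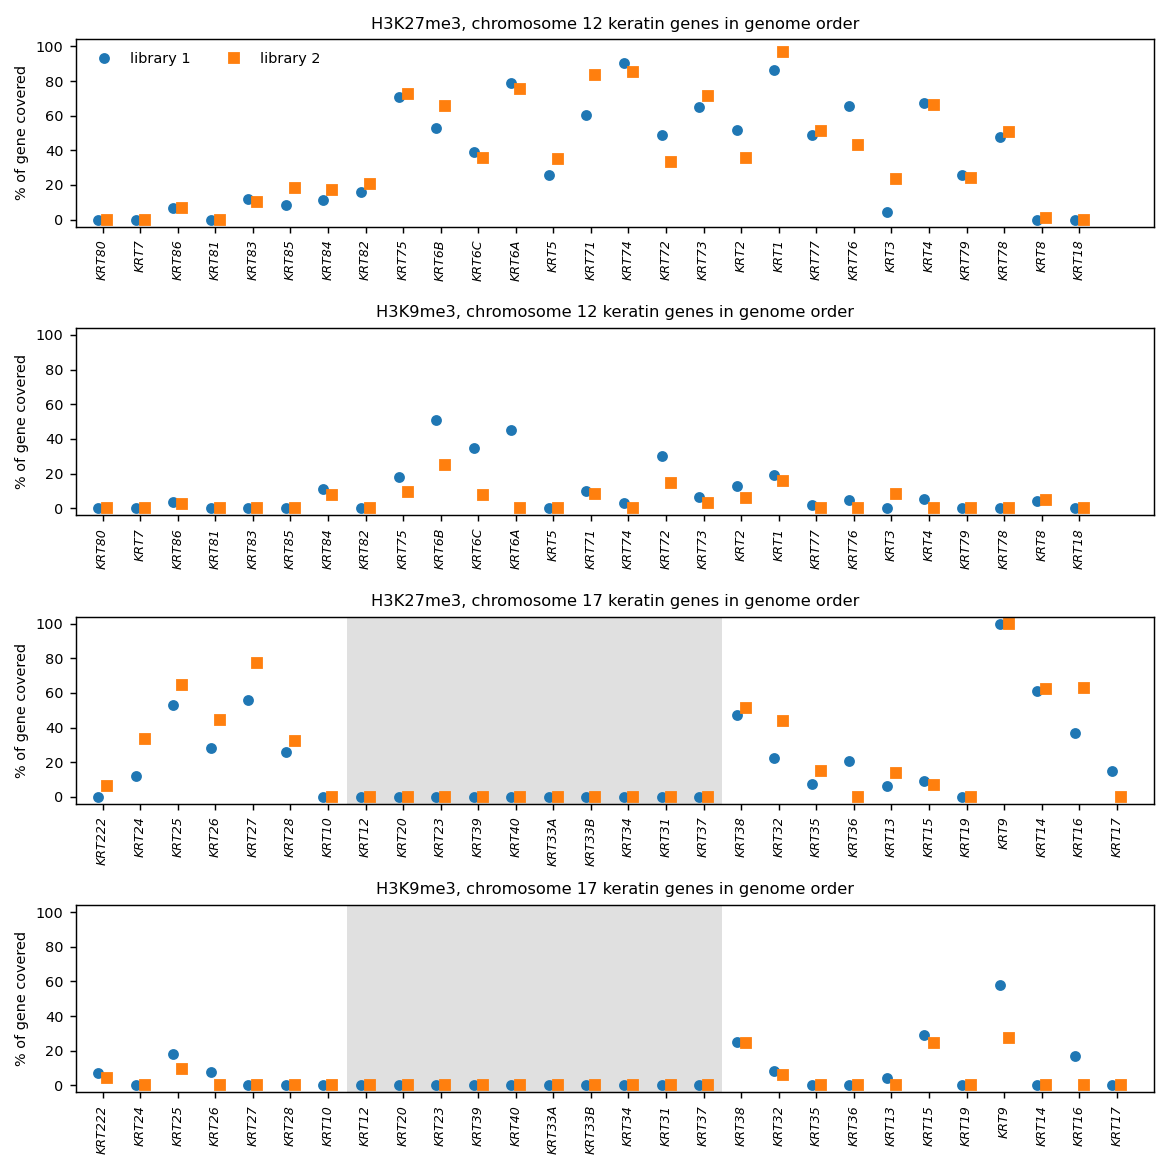
Share of each keratin gene body covered by H3K27me3 or H3K9me3 peaks (y axis, percent) for the genes in genome order (x axis), with circles for library 1 and squares for library 2; grey bands mark the 10 genes in stretches without a peak in any list. H3K27me3 was high in both libraries for most genes from KRT75 to KRT78 and for KRT9 and at 0 in KRT7, KRT80, KRT18 and KRT19, while H3K9me3 was lower and more often seen in library 1.

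The marked genes formed blocks. The borders of the spans below follow the cover seen in these data, so the contrasts between spans are description and no test. From KRT75 to KRT78, over 425 kb, 16 of 17 genes had a covered end, and H3K27me3 lay on 46.6% and 46.9% of the bases, or 36.5% in both libraries at once, against 7.19% for chromosome 12 as a whole. On its left, KRT80 to KRT86 (140 kb, with KRT7 and KRT81) held 1.65% and 1.71%, and on its right KRT8 to KRT18 (55.7 kb) held 0% and 0.78%. KRT83 to KRT82, 4 hair keratins between the left flank and the block, held 14.4% and 20.9%. On chromosome 17 the values were 21.4% and 33.6% from KRT222 to KRT28 and 22.1% and 29.1% from KRT38 to KRT19. From KRT9 to KRT17 they were 51.6% and 48.9%. The chromosome as a whole held 13.3% and 16.2%. KRT10 to KRT37, over 606 kb where the stretches without peaks lie, held 0.34% and 0.81%. The whole chromosome 17 cluster held 9.64% and 12.6%, below the chromosome. The simple keratins KRT7, KRT8 and KRT18 lay on the nearly unmarked flanks of the chromosome 12 cluster.

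H3K9me3 was sparser. It lay at an end of 12 keratin genes in both libraries (21.8%), against 9.12% of all genes, and at both ends of none, against 2.51%. Library 1 alone gave 18 genes (32.7%, against 15.5% of all genes) and library 2 alone 13 (23.6%, against 12.5%). The 12 genes were KRT86, KRT75, KRT6B, KRT6C, KRT2, KRT1, KRT25, KRT26, KRT27, KRT38, KRT32 and KRT16. No keratin body was covered over 50% in both libraries, where all genes gave 1.97%. By subgroup the mark reached an end in 3 of 5 stress, 4 of 9 sheath, 2 of 5 cornifying and 3 of 17 hair keratins, and in none of the other subgroups. The count rested on the window and the list. With the end base alone it was 4 of 55, against 3.46% of all genes. With the upper part of each list it was 5 of 55 against 6.83%. With at least 50% of a window covered it was 2 of 55 against 3.16%. Each keratin share lay above that of all genes, the last only slightly.

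The highest H3K9me3 cover in a single library was found in KRT9, at 58.2% in library 1 and 27.2% in library 2. KRT15 had 29.3% and 24.7%, KRT38 25.3% and 24.7%, KRT72 30.0% and 14.8%, KRT6B 51.1% and 25.2%, and KRT25 18.1% and 9.29%. KRT6A showed the widest gap between libraries, with 44.9% in library 1 and 0% in library 2. Library 1 gave the higher value in each of these genes, and its list was also the longer.

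The 2 marks were then set against each other. Of the 12 genes with H3K9me3 at an end, 11 also had H3K27me3 at an end, 20% of the 55 against 3.04% of all genes with both marks. The exception was KRT86. The same end was not required, and in KRT26 H3K27me3 lay at the upper and H3K9me3 at the lower end. Over keratin bodies H3K9me3 covered 12.2 kb in both libraries, and 6.60 kb of this (54.2%) was also under H3K27me3, whereas over chromosomes 1 to 22 and X the share was 10.0%. In the other direction, 6.74% of the H3K27me3 bases of keratin bodies were also under H3K9me3, beside 6.89% over these chromosomes. H3K27me3 covered 97.8 of the 513 kb of keratin bodies. The libraries were made from cell populations, so both marks on a base do not show both on 1 chromosome copy.

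**Figure D2:**
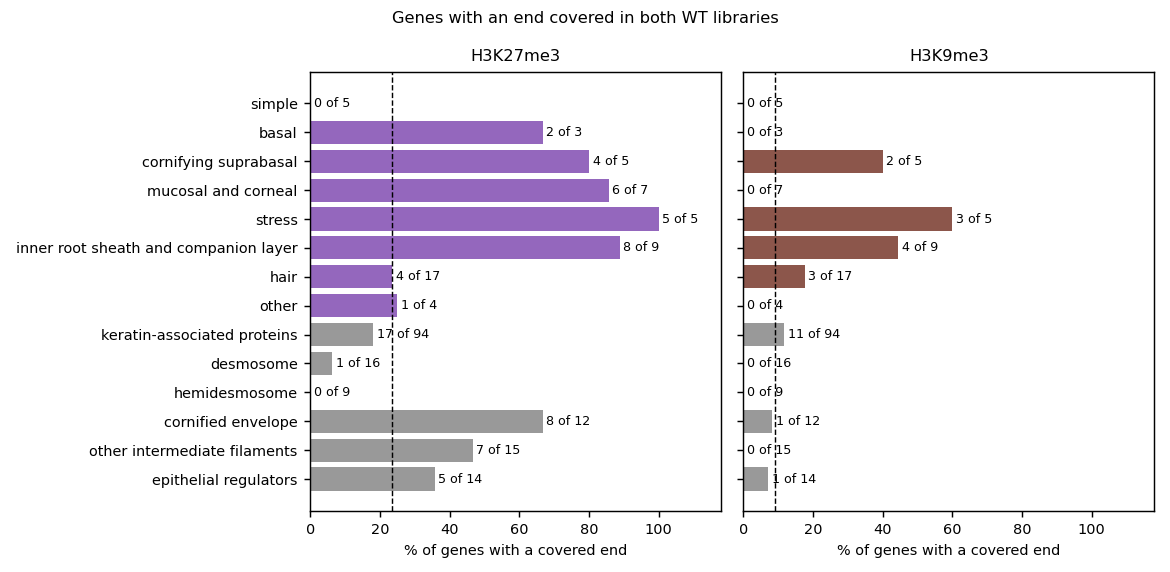
Share of genes with an end covered in both WT libraries (x axis, percent) for H3K27me3 (left) and H3K9me3 (right), by keratin subgroup (coloured bars) and related gene list (grey bars), with the count beside each bar; the dashed line is the share of all protein-coding genes, 23.3% and 9.12%. For H3K27me3 the simple keratins and the desmosome and hemidesmosome genes lay below the line, and the stress, sheath, mucosal and cornifying keratins and the cornified envelope genes above it.

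Genes whose products work with keratins were read in the same way. Counts again required both libraries, beside 23.3% of all genes. H3K27me3 lay at an end of 1 of 16 desmosome genes, which anchor keratin filaments at cell junctions (JUP, with no base of its body covered), and of none of the 9 hemidesmosome genes, which anchor them to the basement membrane. These low counts rested on library 1: in library 2 alone there were 5 of 16 and 2 of 9, where all genes gave 30.3%, and in library 1 alone 2 of 16 and 0 of 9, where all genes gave 26.1%. It lay at an end of 8 of 12 cornified envelope genes, among them LORICRIN (60.4% and 65.4% of the body), IVL (52.6% and 91.9%) and SPRR1A (84.4% and 83.3%). Of 15 other intermediate filament genes 7 had it, including the neurofilament genes NEFL (68.7% and 73.3%) and NEFM (70.5% and 87.1%). Of 14 regulators of epithelial identity 5 had it, with OVOL1 at 63.6% and 49.6% and OVOL2 at 59.1% and 67.5%. The keratin-associated proteins, components of the hair matrix, had it in 17 of 94, of which 31 lay in stretches without peaks.

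FOXA1 in WT cells was examined next. Within 50 kb of a keratin gene, 75 and 153 peaks were called in the 2 libraries, and 54 regions were shared by both, 44 on chromosome 12 and 10 on chromosome 17. Such a region lay within 50 kb of 39 of the 55 genes (70.9%), close to the 71.6% of all protein-coding genes. Their spread was uneven: 19 lay between KRT80 and KRT86, 11 in the longer KRT75 to KRT78 block and 4 from KRT8 to KRT18. KRT7 had 19 within 50 kb and KRT80 and KRT86 had 14 each, while KRT73, within the block, had none.

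Inside keratin genes 19 shared regions were found, mostly in genes with no H3K27me3 at an end, although KRT86 had 6.70% and 6.92% of its body covered. The counts were not corrected for gene length. KRT8 (52.67 kb), KRT86 (34.5 kb), KRT80 and KRT7 (22.6 kb) were among the longest keratin genes, where the median was 6.43 kb. KRT73, of 23.2 kb and with the mark at its ends, held none. Whether FOXA1 avoids marked genes was not tested. KRT7 held 5, KRT86 held 4 (1 of them also in KRT81), KRT8 held 4 (1 also in KRT18) and KRT80 held 3, and KRT77, KRT79 and KRT17 held 1 each. Another 3 lay within 1 kb of KRT4, KRT24 and KRT10. H3K27me3 in both libraries overlapped 2 of the 54 regions (3.70%; 3.23% of all WT FOXA1 regions), 1 inside KRT77 (52690177 to 52690639) and 1 at 2.57 kb from KRT3 (52786615 to 52787117). H3K9me3 overlapped none, against 1.95% of all WT FOXA1 regions.

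The strongest FOXA1 region of the clusters lay between KRT3 and KRT4 (chromosome 12, 52800401 to 52801488, 4.28 kb from KRT3). The enrichment deposited by the authors was 81.2-fold and 187-fold, at the 99.7 and 99.8 percentiles of its lists, where a percentile is the rank of a peak's enrichment within its own list. Second was the region over the overlap of the KRT8 and KRT18 intervals (52949406 to 52950465), with 62.8-fold and 135-fold. These 2 genes, whose products pair, share 1006 bp there in the gene table. Next came a region inside KRT86 (52279959 to 52281561), with 44.6-fold and 130-fold. The chromosome 12 regions had median percentiles of 74.9 and 81.2 and the chromosome 17 regions 56.6 and 58.3.

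The next comparison asked what A-Fos induction did to FOSL2 near keratin genes. Without doxycycline 58 and 21 peaks lay within 50 kb of a keratin gene, and with doxycycline 1 and 6. The groups did not overlap. The mean was 39.5 ± 26.2 (SD, n = 2) without and 3.5 ± 3.54 (SD, n = 2) with doxycycline, a ratio of 0.0886, beside 0.118 for the lists over all chromosomes. The two-sided exact permutation p was 0.333, the smallest that 2 against 2 libraries can give, so the design cannot reach 0.05. Over the gene bodies themselves there were 13 and 6 peaks without and 0 and 1 with doxycycline.

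**Figure D3:**
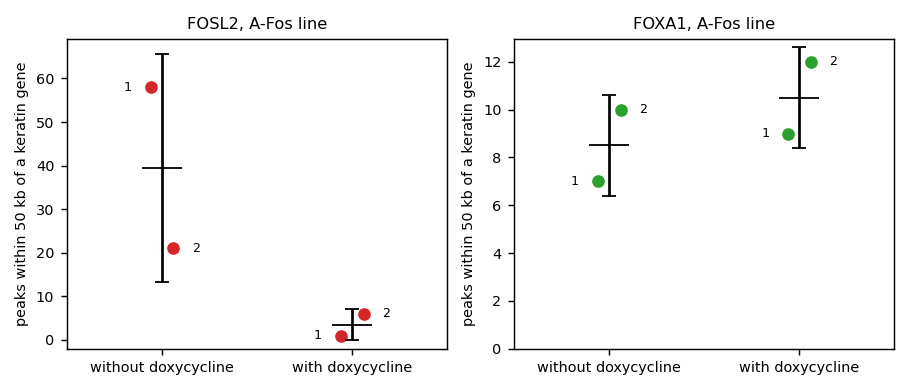
Peaks within 50 kb of a keratin gene (y axis) in each A-Fos library (points, numbered by replicate) without and with doxycycline, for FOSL2 (left) and FOXA1 (right); the horizontal bar is the mean and the whiskers its SD (n = 2). FOSL2 counts were 58 and 21 without and 1 and 6 with doxycycline, while the FOXA1 counts of 7 and 10 overlapped those of 9 and 12.

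Peaks that overlapped across the 4 lists of a factor were merged into regions, and each region was sorted by the lists that called it. Lost regions appeared in the 2 lists without doxycycline and in none with it, gained regions the other way round, and kept regions in every list. Near keratin genes there were 69 FOSL2 regions, of which 17 were lost, 0 kept, 0 gained and 52 in no class. Every region that the 2 untreated libraries shared, 17 in number, was lost, where the share over all chromosomes was 98.4%. A lost region lay within 50 kb of 30 of the 55 genes (54.5%) against 38.6% of all genes, for the kept class 0 against 0.0401% and for the gained class 0 against 0.115%. When the 4 lists were shortened to the same length, by enrichment, the 2 untreated lists held no peak near a keratin gene, so 0 lost regions were left. The count followed the shorter untreated list, library 2: without it there were 58 lost regions, and without library 1 there were 21.

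The lost FOSL2 regions were counted along the clusters. On chromosome 12 there were 14 and on chromosome 17 there were 3. None of the 17 overlapped H3K27me3 or H3K9me3, which over all chromosomes 1.82% and 2.05% of lost FOSL2 regions did, so a count of 0 is near the background. Of the 17, 9 (52.9%) overlapped a shared WT FOXA1 region, against 47.3% of all FOSL2 regions called in both libraries. From KRT8 to KRT18, in 55.7 kb, there were 4, from KRT80 to KRT86, in 140 kb, 3, from KRT83 to KRT82, in 92.0 kb, 2, and from KRT75 to KRT78, in 425 kb, 2. By subgroup, a lost region lay within 50 kb of 4 of 5 simple, 3 of 3 basal, 5 of 7 mucosal and corneal, 11 of 17 hair, 2 of 4 remaining, 2 of 5 stress, 2 of 9 sheath and 1 of 5 cornifying keratins, beside the 38.6% of all genes. Neighbouring genes share regions, so these counts are not independent.

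The KRT8 and KRT18 pair had the most. Each had 6 lost regions within 50 kb, and 4 lay inside the KRT8 interval. That over the shared ends of KRT8 and KRT18 (52949702 to 52950190) was enriched 24.5-fold and 5.07-fold, at the 91.8 and 59.6 percentiles of the 2 lists without doxycycline. A pair inside KRT8 (52925112 to 52925876 and 52927093 to 52927568) lay on either side of the KRT8 promoter window printed above, at the 77.7 and 13.5 percentiles and the 71.6 and 64.7 percentiles. The fourth (52903870 to 52904216) was at the 66.0 and 33.2 percentiles. Outside the pair, a region 18.7 kb from KRT18 (52971625 to 52972418) stood at the 90.4 and 80.7 percentiles.

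Lost regions elsewhere lay close to several genes. The region with the highest mean percentile over the 2 untreated lists, from 91.0 and 82.1, lay 6.15 kb from the hair keratin gene KRT83 (52327548 to 52328018). That inside KRT86 (52280210 to 52281317) stood at the 82.2 and 48.8 percentiles, and that 0.105 kb from KRT80 (52192119 to 52192626) at the 77.2 and 27.7 percentiles. These 3 belong to the left flank and its border. KRT5 had 1 at 0.689 kb from its end (52521083 to 52521558), at the 78.5 and 48.6 percentiles. KRT3 had 1 at 2.66 kb (52798781 to 52799641, 88.3 and 60.9 percentiles), and KRT7 had 1 at 17.3 kb (52215482 to 52215954, 86.2 and 68.5 percentiles).

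The 3 lost regions of chromosome 17 all lay between KRT38 and KRT9. One was inside the hair keratin gene KRT32 (41464754 to 41465161, 77.5 and 42.0 percentiles). Another was 1.75 kb from KRT19 (41530058 to 41530507), the type I keratin of ductal epithelium, at the 80.3 and 45.1 percentiles. The remaining one was 17.5 kb from KRT9 (41547879 to 41548347). KRT19 had neither histone mark in its body in any library.

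Peaks called with doxycycline were few and elsewhere. All 7 lay on chromosome 17 in the span from KRT222 to about 18.5 kb past KRT10. Library 1 gave 1 of them and library 2 gave 6, and no region was shared by both. None overlapped a FOSL2 region called without doxycycline. Those at 40762315 to 40762758 and 40769858 to 40770346, by KRT26, overlapped H3K27me3 of both WT libraries. The chromosome 12 cluster held 0 FOSL2 peaks in both doxycycline lists, after 44 and 14 without doxycycline. The strongest of the 7 stood at the 98.4 percentile of its list, 15.9 kb from KRT24 (40719690 to 40720215), with an enrichment of 5.09-fold.

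FOXA1 in the A-Fos line was compared in the same way. Within 50 kb of keratin genes 7 and 10 peaks were called without doxycycline and 9 and 12 with it. The groups overlapped, at 8.5 ± 2.12 and 10.5 ± 2.12 (SD, n = 2 each), with a ratio of 1.24 beside 1.25 over all chromosomes and a two-sided exact permutation p of 0.667. Over gene bodies each of the 4 lists held 3 peaks. Shortening the lists to one length turned the difference, to 6.5 without and 6 with doxycycline.

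Of 19 FOXA1 regions near keratin genes 4 were kept, 2 lost, 1 gained and 12 in no class, and all 7 with a class lay on chromosome 12. A kept region lay within 50 kb of 12 of the 55 genes (21.8%; 14.6% of all genes), a lost one of 6 (10.9%; 8.96%) and a gained one of 5 (9.09%; 6.92%). Of the 6 regions shared by the untreated libraries, 4 were kept (53.3% over all chromosomes) and 2 lost (31.1%). All 7 were also called in both WT libraries. Such overlap was common: over all chromosomes 5925 shared WT regions overlapped one of the 6012 FOXA1 regions shared by the untreated libraries. In the other direction, 6 of the 54 WT regions near keratins (11.1%) overlapped one, against 16.6% of all WT regions. The 6 stood among the strongest in WT, with median percentiles of 98.0 and 98.8 against 64.8 and 75.7 for the other 48 WT regions. None of the 7 overlapped H3K27me3, beside 3.23% of all WT FOXA1 regions.

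The kept regions lay at 4 places. That between KRT3 and KRT4 (52800681 to 52801362) stood at the 90.7 and 94.7 percentiles without and the 97.1 and 97.0 percentiles with doxycycline. That inside KRT86 (52280154 to 52281207) stood at 85.7 and 80.9, then 97.0 and 94.0. The region at the shared ends of KRT8 and KRT18 (52949735 to 52950178) stood at 83.9 and 73.9, then 80.1 and 30.4. That 11.8 kb from KRT7 (52220885 to 52221478) stood at 15.4 and 52.9, then 29.3 and 66.6. Lists differ in length, so these ranks cannot tell whether binding changed. The deposited enrichments overlapped between KRT3 and KRT4, at 14.2-fold and 24.4-fold without and 19.4-fold and 22.3-fold with doxycycline. They also overlapped near KRT7, at 3.85-fold and 6.69-fold, then 3.59-fold and 6.15-fold. Inside KRT86 they were higher with doxycycline, at 11.5-fold and 12.1-fold, then 19.1-fold and 16.1-fold. At KRT8 and KRT18 they were lower with it, at 10.9-fold and 9.91-fold, then 7.51-fold and 3.70-fold. These differences were not tested.

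The KRT86 and the KRT8 and KRT18 regions joined the 2 factors. Each overlapped a lost FOSL2 region, while FOXA1 was called there in all 4 A-Fos lists and both WT lists. At these 2 places FOXA1 was called in every list with doxycycline and FOSL2 in none. None of the 17 lost FOSL2 regions overlapped a lost FOXA1 region, of which there were 2, beside 7.34% of lost FOSL2 regions over all chromosomes.

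The 2 lost FOXA1 regions had these ranks without doxycycline, beside 15.4 and 52.9 for the kept region near KRT7. That inside KRT7 (52247389 to 52247706) was at the 34.1 and 59.4 percentiles, and that 22.2 kb from KRT78 (52871195 to 52871558) at the 38.5 and 14.9 percentiles. Both overlapped a FOSL2 peak of library 1 without doxycycline but none of library 2. Of the 4 kept regions, 3 overlapped a FOSL2 peak without doxycycline, 2 of them a FOSL2 region of both libraries. The kept region between KRT3 and KRT4 overlapped one of library 1 alone. The gained region lay inside KRT79 (52827184 to 52827576), a keratin gene of sebaceous duct and hair canal, at the 62.1 and 75.3 percentiles with doxycycline, and no FOSL2 peak without doxycycline overlapped it. With only the upper part of each list the counts were 2 kept, 0 lost and 2 gained, and with lists of equal length 2, 1 and 2.

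**Figure D4:**
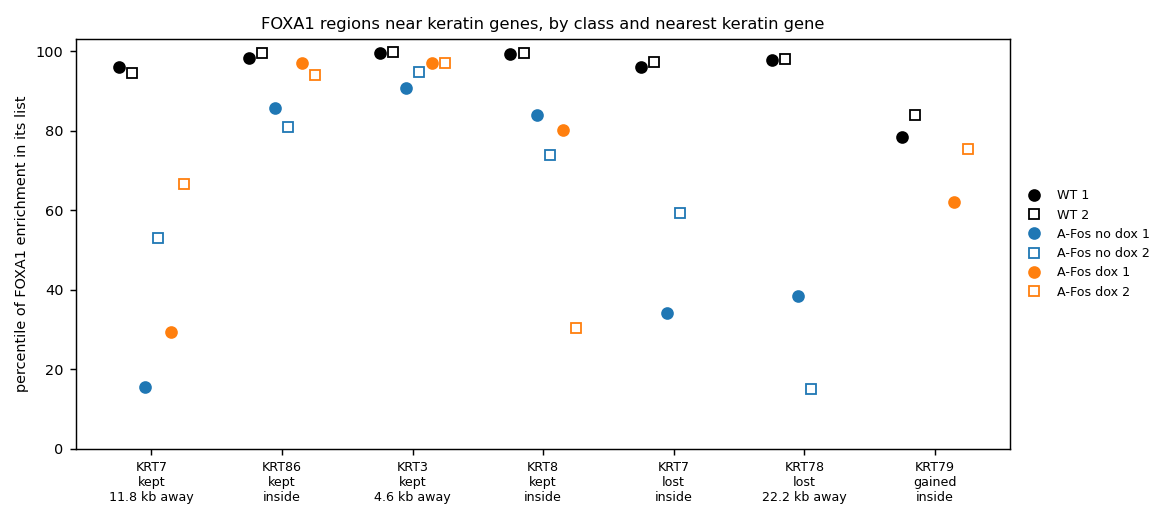
Percentile of FOXA1 enrichment within its list (y axis, 100 is the strongest peak) for the 7 classed FOXA1 regions near keratin genes, labelled by nearest keratin gene, class and distance (x axis), in the 2 WT lists (black), the A-Fos lists without doxycycline (blue) and with it (orange); circles are library 1, squares library 2, and a missing symbol means no peak. The 4 kept regions and the 2 lost ones ranked between the 94.5 and 99.8 percentiles of the WT lists; WT and A-Fos lists differ in length, so ranks are compared within a list only.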

How the data were processed

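The deposited files were 14 peak lists in narrowPeak form, 1 per library; the 3 inputs had no list analysed here. Per the labels' protocols, fixation was 10 min in 1% formaldehyde and reads were 50 bp pairs. The submitters' processing notes name MACS2, deepTools, BWA 2.2.1, SAMtools 1.8, DRAGEN, fastp 0.23.2 and the build hg38, but how they were combined or set is not given in the sources used here. Each deposited list gives a score, a fold enrichment (a linear ratio) and the −log10 of p and q per peak; the smallest −log10 q was 1.3. Depth is unknown, so no interval or limit from counts can be given, and ratios served only to rank peaks within each list.

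Other contigs than chromosomes 1 to 22 and X were left out. Intervals were computed in Python 3.11.15 with numpy 2.4.6 and pandas 2.3.3. A mark or a WT FOXA1 region counted where both libraries had it, an end was covered when at least 1 bp within 1 kb was, and overlap meant at least 1 bp. Gene intervals came from RefSeq GRCh38.p14 without strand. Peak counts were compared by exact permutation tests over libraries. Genes named by rule were the main keratins of each epithelium, the 6 most covered by each mark, those with H3K9me3 at an end, and the strongest regions of each class; the genes of the related lists, KRT6C, KRT16, KRT17, KRT3, KRT13, KRT2 and KRT81 were added as examples after their values were seen. The members and lists were chosen with earlier results of these data known. Same-numbered libraries deviated from their group means with correlations of 0.164 (FOSL2) and 0.0166 (FOXA1). Interval functions were tested on simulated data. Alternatives were other windows, peaks at or above the median enrichment of their list (the upper part), 200 bp around summits, equally long lists, each library left out, a replicate block and, chosen after seeing the data, leaving out the genes in stretches without peaks.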

Additional observations from a re-analysis of the deposited data

How the results depend on the processing

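Many counts moved with how much of each list was used. For keratin genes with H3K27me3 at an end (30) the count was 18 with the upper part of each list, 17 with the end base alone and 15 with 50% of an end window; single libraries gave 34 to 37. The median H3K27me3 cover (5.14%) was 28.6% where either library counted, 14.8% to 20.7% in single libraries, 0% with the upper part and 18.4% without the 10 genes in stretches without peaks. For H3K9me3 ends (12) the count was 19 in either library, 5 with the upper part, 4 with the end base, 24 with 5 kb and 2 with 50% of a window; single libraries gave 13 to 18. The difference in mean FOSL2 peaks with minus without doxycycline (-36.0) turned to 1.00 with lists of equal length, the cause being that the top 1854 peaks of the lists without doxycycline held none near a keratin gene, and was -54.5 to -17.5 with a library left out; that of FOXA1 (2.00) turned to -0.50 and was 0.50 to 3.50. Lost FOSL2 regions (17) were 11 within 10 kb, 7 with the upper part and 0 at equal length, and 17 to 58 with a library left out. Lost FOXA1 regions (2) were 1 within 10 kb, 0 with the upper part, 1 at equal length and 2 to 4 with a library left out; kept ones (4) were 2 with the upper part, 2 at equal length and 4 to 6; gained ones (1) were 2, 2 and 1 to 6. WT FOXA1 regions (54) were 75 to 153 in single libraries. The causes of the other moves were not tested.

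With a replicate block the differences stayed at -36.0 and 2.00 peaks, with exact sign permutation p of 0.50 for both FOSL2 and FOXA1, the smallest that 2 pairs allow; the numbers were not shown to pair the libraries.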
